A study of Mus musculus with 15 samples.

Results

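The genes described are *Phlda2* and the other genes of the imprinted *Kcnq1ot1* domain on distal mouse chromosome 7. The 10 members, *Phlda2*, *Cdkn1c*, *Slc22a18*, *Kcnq1*, *Kcnq1ot1*, *Ascl2*, *Cd81*, *Tssc4*, *Tnfrsf22* and *Tnfrsf23*, were chosen from the 17454 genes measured by their place in this domain, with the values of *Phlda2* in Tie2-Cre knockout and WT libraries already known. The members' values in that contrast are therefore given as a description, with no test.

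RNA-seq was done on erythro-myeloid progenitors (EMPs) sorted from the E10.5 yolk sac (YS) of C57BL/6 embryos, each library being made from an individual YS. All embryos carried floxed *Ezh2* alleles (Ezh2fl/fl), whose deletion removes exons that encode the SET domain. The 5 Tie2-Ezh2-KO libraries were from embryos with Tie2-CreTg/+, in which Cre acts in endothelium and so in the blood cells that come from it, and the 5 Vav-Ezh2-KO libraries from embryos with Vav-CreTg/+ (the Vav-iCre line), in which Cre acts in hematopoietic cells. Embryos without either Cre gave 3 Tie2-Ezh2-WT and 2 Vav-Ezh2-WT libraries, which are called WT where both lines are pooled. The labels give 500 sorted cells per library, and the study's methods give a smaller number, so the input of each library is not certain.

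Imprinted genes are expressed mainly from the maternal or the paternal chromosome. In this domain the long noncoding RNA *Kcnq1ot1* is made from the paternal chromosome and silences neighbouring genes there, among them *Phlda2*, *Cdkn1c* and *Ascl2*, which are then expressed from the maternal copy. PRC2, whose catalytic subunit is EZH2, deposits H3K27me3 and takes part in this silencing, which reaches farthest in the placenta, where *Phlda2* and *Cdkn1c* restrain growth and *Ascl2* is needed for the spongiotrophoblast.

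Levels are given as RPKM, the reads on a gene per kilobase of its length and relative to all reads on genes, so that levels of different genes can be set beside each other. The libraries held 10407398 to 41025074 reads on genes in Tie2-Ezh2-WT, 14890780 and 19957939 in Vav-Ezh2-WT, 14818723 to 26825709 in Tie2-Ezh2-KO and 11506895 to 28714656 in Vav-Ezh2-KO. Differences are differences in mean log2(RPKM + 0.2), where the added 0.2 keeps a value of 0 on the scale. A gene was tested if 1 or more libraries of a comparison had it above 0.2 RPKM. The test was made with limma, and a gene was called at a Benjamini-Hochberg adjusted p under 0.05. Of the 10 members, 9 passed this filter in each comparison and *Kcnq1* did not. Both knockouts were compared with the same 5 WT libraries, so the comparisons are not independent, and no test was made of whether the knockouts differed in their effects.

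*Ezh2*, the targeted gene, was at 36.9, 39.5 and 30.1 RPKM in Tie2-Ezh2-WT, 42.0 and 41.5 in Vav-Ezh2-WT, 27.8, 26.2, 24.8, 29.5 and 26.5 in Tie2-Ezh2-KO, and 33.7, 42.4, 37.8, 38.1 and 34.0 in Vav-Ezh2-KO. All 5 Tie2-Ezh2-KO libraries were below all WT libraries, while the Vav-Ezh2-KO libraries overlapped them. The values cover the whole gene, and the deleted exons were not separated. By quantitative PCR on a deleted exon, the study reports that its expression was lost in EMPs of both knockouts. The log2 difference of *Ezh2* was -0.48 (SE 0.12, limma adjusted p = 0.0418) in Tie2-Ezh2-KO and -0.02 (limma adjusted p = 0.969) in Vav-Ezh2-KO. The first call was kept in 10 of 22 alternatives, with an adjusted p of 0.0107 to 0.344, and was lost without Tie2-Ezh2-WT replicate 4 or 10, either Vav-Ezh2-WT library, or Tie2-Ezh2-KO replicate 7, 11 or 17, at differences of -0.49 to -0.45.

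The RNA of markers used for the sort was also read, which is no independent check of the EMP label. In WT libraries *Kit* was at 28.6 ± 2.24 RPKM, *Itga2b*, which encodes CD41, at 31.1 ± 6.38 and *Fcgr3*, which encodes CD16, at 124 ± 22.3 (mean ± SD, n = 5, as in the text that follows unless stated). In Tie2-Ezh2-KO these markers were at 28.0 ± 11.6, 28.5 ± 8.7 and 89.4 ± 15.1 RPKM, and in Vav-Ezh2-KO their means were 25.2, 28.1 and 131, so all were present in each genotype. The summed level of 15 EMP genes, with *Nfe2* the most abundant on average, was 1010 to 1180 RPKM in WT, 1060 to 1280 in Tie2-Ezh2-KO and 924 to 1150 in Vav-Ezh2-KO.

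*Phlda2* encodes a small protein with a pleckstrin homology-like domain that limits placental growth. It was at 5.35, 0.0858 and 1.16 RPKM in Tie2-Ezh2-WT, 0.456 and 2.58 in Vav-Ezh2-WT, 20.9, 24.5, 21.5, 29.4 and 16.2 in Tie2-Ezh2-KO, and 0.336, 1.77, 5.15, 0.825 and 0.756 in Vav-Ezh2-KO. All 5 Tie2-Ezh2-KO libraries were high and lay above every other library, whereas the WT and Vav-Ezh2-KO libraries were low, scattered and overlapping. The WT values rested on 1 to 41 reads and the Tie2-Ezh2-KO values on 192 to 581. The mean was 1.93 ± 2.14 RPKM in WT, 22.5 ± 4.86 in Tie2-Ezh2-KO and 1.77 ± 1.96 in Vav-Ezh2-KO. The mean in Tie2-Ezh2-KO was 11.7 times that in WT, and its lowest library was 3.03 times the highest WT library. Both ratios depend on Tie2-Ezh2-WT replicate 4, at 5.35 RPKM, and would be larger without it, since the next WT library was at 2.58.

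*Cdkn1c* encodes p57, an inhibitor of cyclin-dependent kinases. It was at 4.70, 1.89 and 2.0 RPKM in Tie2-Ezh2-WT, 0.415 and 2.50 in Vav-Ezh2-WT, 12.7, 5.96, 9.80, 8.58 and 8.67 in Tie2-Ezh2-KO, and 0.602, 1.29, 0.978, 1.43 and 0.251 in Vav-Ezh2-KO. The Tie2-Ezh2-KO libraries were again the 5 highest, the gap to the highest WT library was narrow, and the Vav-Ezh2-KO libraries were low, all 5 below the WT median and 1 below all WT libraries. The means were 2.30 ± 1.55, 9.15 ± 2.45 and 0.910 ± 0.487 RPKM in WT, in Tie2-Ezh2-KO and then in Vav-Ezh2-KO. The mean in Tie2-Ezh2-KO was 3.98 times that in WT, and its lowest library was 1.27 times the highest WT library. That narrow gap rests on Tie2-Ezh2-WT replicate 4, at 4.70 RPKM, since the next WT library was at 2.50.

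*Ascl2* encodes a basic helix-loop-helix transcription factor of trophoblast and stem cells. It was at 1.19, 1.14 and 0.862 RPKM in Tie2-Ezh2-WT, 0.0833 and 1.37 in Vav-Ezh2-WT, 11.6, 4.51, 6.53, 9.92 and 9.91 in Tie2-Ezh2-KO, and 1.05, 1.58, 0.957, 1.73 and 0.518 in Vav-Ezh2-KO. Here too every Tie2-Ezh2-KO library was above every other library, and the WT and Vav-Ezh2-KO libraries were mixed. The value of 0.0833 RPKM in Vav-Ezh2-WT replicate 4 came from 2 reads. The means were 0.929 ± 0.506, 8.50 ± 2.90 and 1.17 ± 0.490 RPKM in WT, in Tie2-Ezh2-KO and then in Vav-Ezh2-KO, and the mean in Tie2-Ezh2-KO was 9.15 times that in WT.

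On the log2 scale the differences between Tie2-Ezh2-KO and WT were 4.08 (SE 0.59) for *Phlda2*, 3.08 (SE 0.43) for *Ascl2* and 2.14 (SE 0.42) for *Cdkn1c*. All 5 knockout libraries were above all 5 WT libraries for these 3 of the 9 members that passed the filter, and for 3.29% of all 14154 genes of that comparison. Since the members were chosen with this contrast known, nothing is read from that count. The coefficient of variation of *Phlda2* was 111% in WT, 21.6% in Tie2-Ezh2-KO and 111% in Vav-Ezh2-KO, so its relative spread was smallest where its level was highest. *Cdkn1c* followed the same order for Tie2-Ezh2-KO, with 67.4%, 26.8% and 53.5%, as did *Ascl2*, with 54.5%, 34.1% and 42.0%. The WT value of *Ascl2* includes the low Vav-Ezh2-WT replicate 4, at 0.0833 RPKM. In the Tie2-Ezh2-WT libraries alone it was 16.6% (n = 3), below that in Tie2-Ezh2-KO, so the order for *Ascl2* is not firm. In bulk RNA, more RNA per cell and more cells of an expressing type cannot be told apart.

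**Figure D1:**
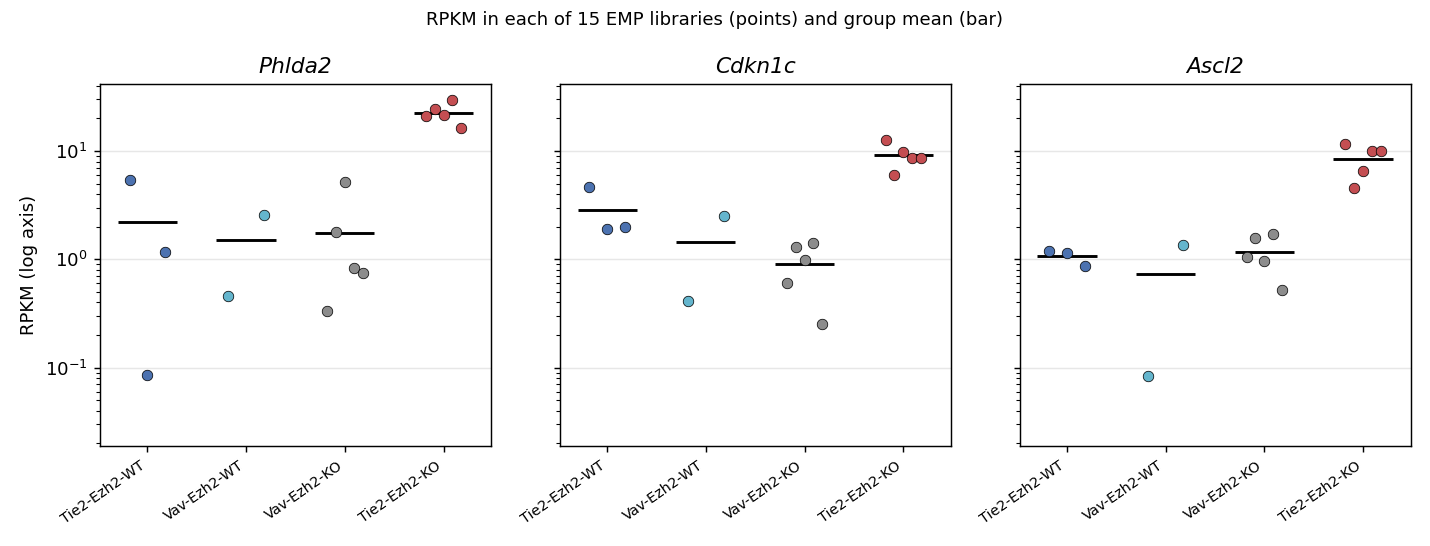
RPKM of *Phlda2*, *Cdkn1c* and *Ascl2* on a log axis in the 15 libraries by group, with 1 point per library and a bar at the group mean. *Phlda2* sits at 16.2 to 29.4 RPKM in the 5 Tie2-Ezh2-KO libraries and at 0.0858 to 5.35 in all others, and the Tie2-Ezh2-KO libraries are also the highest for *Cdkn1c* and *Ascl2*.

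The members were tested in Vav-Ezh2-KO, on the assumption that these libraries were not used to choose them. The WT libraries, which were known in that choice, are the same, so the test is not fully independent of it. The log2 difference from WT was 0.10 for *Phlda2* (SE 0.73, limma adjusted p = 0.982, exact permutation p = 0.905), with *Phlda2* spread over a similar range in both groups. For *Ascl2* it was 0.41 (SE 0.44, limma adjusted p = 0.844, exact permutation p = 0.548), 0.95 against the Vav-Ezh2-WT libraries alone and -0.04 without Vav-Ezh2-WT replicate 4. *Cdkn1c* had the difference farthest from 0, at -1.04 (SE 0.49, limma adjusted p = 0.638, exact permutation p = 0.127), with an unadjusted limma p of 0.0512. It was -0.36 against the Vav-Ezh2-WT libraries alone and -1.47 without Vav-Ezh2-WT replicate 4. None of the 9 members was called by limma, against 0.00733% of 13646 genes (1 gene, *Sva*, named after its values were seen), and none had an unadjusted p under 0.05, against 7.93% of all genes. None was called by limma-voom on recovered reads either. The exact test, two-sided, divides the 10 libraries in every way into 5 and 5, and the smallest p it can give is 0.00794.

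The WT libraries of the 2 lines were also compared, with the spread taken over all 15 libraries. *Cdkn1c* was at 2.86 ± 1.59 RPKM (n = 3) in Tie2-Ezh2-WT and 1.46 ± 1.48 (n = 2) in Vav-Ezh2-WT, a log2 difference of 1.13 (SE 0.60, limma adjusted p = 0.863). For *Ascl2* the difference was 0.91 (SE 0.58, limma adjusted p = 0.903) and for *Phlda2* -0.07 (SE 0.96, limma adjusted p = 1.0). Leaving out Vav-Ezh2-WT replicate 4 brought the *Cdkn1c* difference to 0.06 and turned that of *Ascl2* to -0.32, and over each library left out the *Cdkn1c* difference was 0.06 to 2.20. None of the 9 members was called or had an unadjusted p under 0.05, and 0.0139% of the 14394 genes tested were called (2 genes, of which *Nfkbia* is named after its values were seen).

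*Kcnq1ot1* is the long noncoding RNA of the domain, transcribed antisense from within *Kcnq1*. It was low throughout, at 0.0944 to 0.301 RPKM in WT, 0.0674 to 0.193 in Tie2-Ezh2-KO and 0.0768 to 0.169 in Vav-Ezh2-KO, from 86 to 433 reads over its model of 83437 bases. All groups overlapped, and the gene passed the filter only through 1 WT library above 0.2 RPKM, which favours a negative difference in both knockouts. Its log2 difference was -0.12 (SE 0.26) in Tie2-Ezh2-KO and -0.16 (SE 0.25, limma adjusted p = 0.89, exact permutation p = 0.357) in Vav-Ezh2-KO. The reads are not stated to keep the strand, so reads of unspliced *Kcnq1* could count for *Kcnq1ot1*.

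*Kcnq1*, which encodes a potassium channel, was at 0 in 14 of 15 libraries and at 0.0615 RPKM, from 5 reads, in Tie2-Ezh2-KO replicate 13. A level that would give 3 reads ranged from 0.0241 RPKM in the deepest library to 0.0952 in the shallowest. Of 25 distinct exons annotated for *Kcnq1*, 1 touches the *Kcnq1ot1* span, over 121 bases.

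*Slc22a18* encodes an organic cation transporter-like protein and lies between *Cdkn1c* and *Phlda2*. It was at 0 to 1.18 RPKM in WT, 0 to 1.81 in Tie2-Ezh2-KO and 0 to 1.34 in Vav-Ezh2-KO, from 0 to 49 reads, and above 0 in 12 of 15 libraries. The groups overlapped, and the log2 difference was 0.35 (SE 0.61) in Tie2-Ezh2-KO and 0.23 (SE 0.59, limma adjusted p = 0.941) in Vav-Ezh2-KO. The gene between *Cdkn1c* and *Phlda2* thus lay within or close to the WT range in both knockouts.

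*Cd81* and *Tssc4* were the abundant members. *Cd81*, which encodes a tetraspanin of the cell surface, was at 287 to 344 RPKM in WT, 317 to 366 in Tie2-Ezh2-KO and 216 to 344 in Vav-Ezh2-KO. *Tssc4*, which encodes a protein of spliceosome assembly, was at 46.3 to 67.1, 42.6 to 63.4 and 43.3 to 54.0 RPKM. The groups overlapped for both genes. The log2 differences in Tie2-Ezh2-KO were 0.10 (SE 0.09) for *Cd81* and -0.06 (SE 0.13) for *Tssc4*, and in Vav-Ezh2-KO -0.13 (SE 0.12, limma adjusted p = 0.808) and -0.16 (SE 0.11, limma adjusted p = 0.737).

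*Tnfrsf22* and *Tnfrsf23* encode decoy receptors for TRAIL. *Tnfrsf22* was at 0.900 to 1.48 RPKM in WT, 1.10 to 2.49 in Tie2-Ezh2-KO and 0.857 to 2.06 in Vav-Ezh2-KO. Of its libraries, 3 of 5 in Tie2-Ezh2-KO and 2 of 5 in Vav-Ezh2-KO were above all WT libraries. *Tnfrsf23* was at 0.0371 to 0.237 RPKM over the 15 libraries, from 2 to 22 reads. The log2 differences of *Tnfrsf22* were 0.37 (SE 0.28) in Tie2-Ezh2-KO and 0.13 (SE 0.28, limma adjusted p = 0.923) in Vav-Ezh2-KO, and those of *Tnfrsf23* 0.15 (SE 0.26) and 0.05 (SE 0.27, limma adjusted p = 0.977). The genes are related, and 527 of the 4179 distinct words of 75 bases, the read length, in the transcripts of *Tnfrsf22* also occur in *Tnfrsf23*.

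In WT libraries the order of mean levels was *Cd81*, *Tssc4*, *Cdkn1c*, *Phlda2*, *Tnfrsf22*, *Ascl2*, *Slc22a18*, *Kcnq1ot1*, *Tnfrsf23* and *Kcnq1*. *Cd81* and *Tssc4* stood apart from each other and from the rest, at 315 ± 21.7 and 54.7 ± 8.27 RPKM. *Cdkn1c*, *Phlda2*, *Tnfrsf22* (1.22 ± 0.258 RPKM), *Ascl2* and *Slc22a18* (0.607 ± 0.494) did not differ from their neighbours beyond their spread, nor did *Kcnq1ot1* (0.159 ± 0.0842) from *Tnfrsf23* (0.118 ± 0.0639). In Tie2-Ezh2-KO *Phlda2* came next after *Tssc4* and stood apart, followed by *Cdkn1c* and *Ascl2*, which overlapped, and then *Tnfrsf22* at 1.68 ± 0.586 RPKM. In Vav-Ezh2-KO *Phlda2*, *Tnfrsf22*, *Ascl2*, *Cdkn1c* and *Slc22a18* lay between 0.735 and 1.77 RPKM and each overlapped the next. Among all genes of the table, *Phlda2* was above 50.5% in WT, 78.6% in Tie2-Ezh2-KO and 49.6% in Vav-Ezh2-KO. *Ascl2* was above 43.4%, 66.7% and 45.6%, and *Cdkn1c* above 52.3%, 67.5% and 43.3%.

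The members span 719615 bases of chromosome 7 in GRCm38, from *Ascl2* to *Tnfrsf23*. *Ascl2* lies 83485 bases from *Cd81*, and *Cd81* 485 bases from *Tssc4*. *Kcnq1* and *Kcnq1ot1* follow, and then *Cdkn1c* and *Phlda2*, which are 40485 bases apart with *Slc22a18* between them. The 3 members that were high in Tie2-Ezh2-KO are therefore not neighbours in a row, since *Ascl2* and *Cdkn1c* are 489074 bases apart and *Cd81*, *Tssc4*, *Kcnq1* and *Kcnq1ot1* lie between. The nearer end of *Tnfrsf22* is 131662 bases beyond *Phlda2*. All of *Ascl2*, *Kcnq1ot1*, *Cdkn1c*, *Phlda2*, *Tnfrsf22* and *Tnfrsf23* are on the minus strand.

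**Figure D2:**
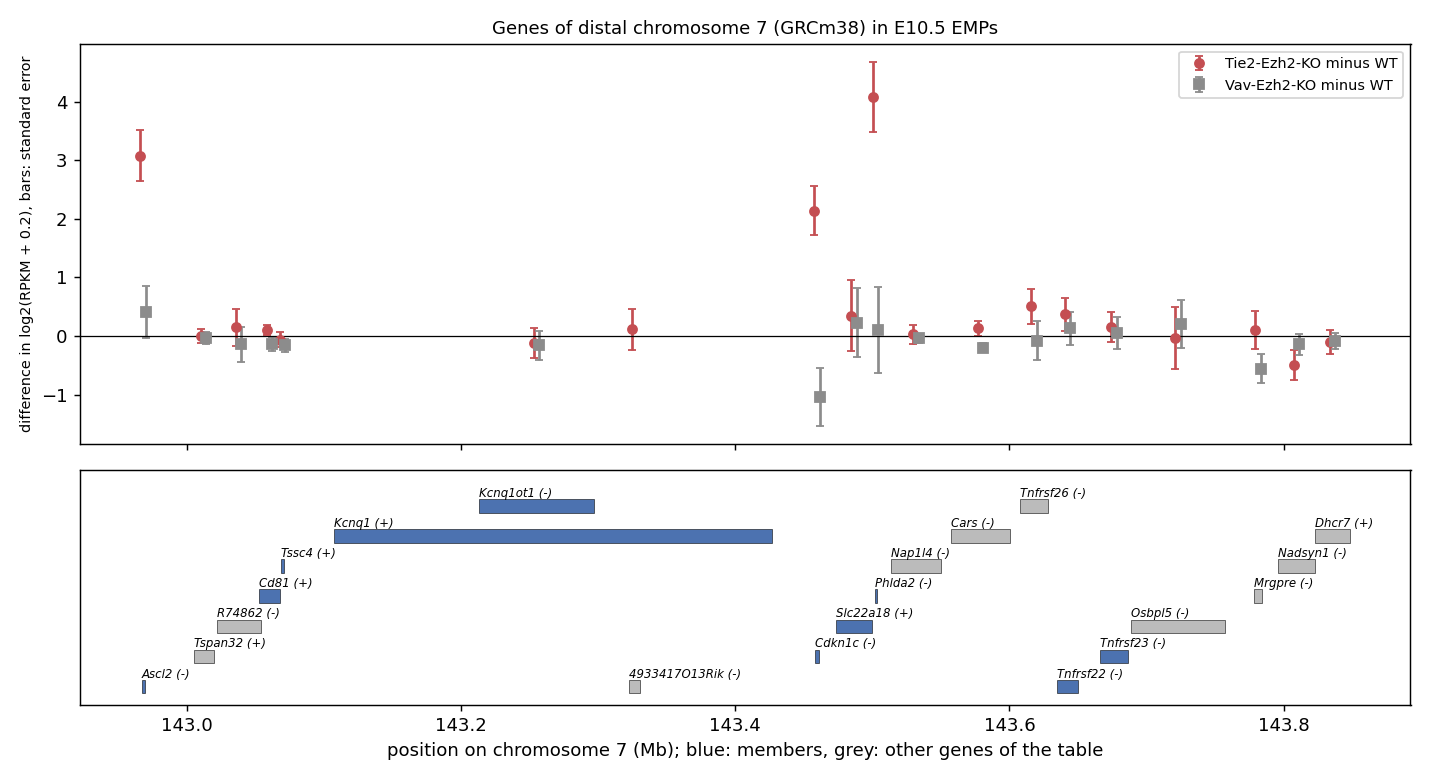
Log2 difference from WT in Tie2-Ezh2-KO and Vav-Ezh2-KO, with bars for the standard error, above the positions of the members and the other genes of the table on chromosome 7 (GRCm38, Mb). *Phlda2* (4.08), *Ascl2* (3.08) and *Cdkn1c* (2.14) stand out in Tie2-Ezh2-KO, and the other genes drawn lie between -0.49 and 0.51 there.

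Flanking genes of the region were taken from a list of 20, of which 15 were tested in Tie2-Ezh2-KO and none was called by limma, beside 2.73% of all 14154 genes (2.42% called higher), with 0 at an unadjusted p under 0.05 and 0 called by limma-voom. Their median log2 difference was 0.03, beside 0.01 over all genes, and the differences ran from -0.49 (*Nadsyn1*, SE 0.26, limma adjusted p = 0.563) to 0.51 (*Tnfrsf26*, SE 0.30, limma adjusted p = 0.647). *Nap1l4*, beside *Phlda2*, was at 109 ± 6.3 RPKM in WT, 115 ± 27.9 in Tie2-Ezh2-KO and 106 ± 10.4 in Vav-Ezh2-KO, and its neighbour *Cars* at 32.6 ± 2.0, 36.1 ± 6.4 and 28.3 ± 0.849. *Tspan32*, near *Cd81*, was at 179 ± 20.2, 180 ± 27.3 and 175 ± 21.4 RPKM. *Osbpl5* varied widely, at 0.446 ± 0.547, 0.444 ± 0.506 and 0.414 ± 0.146 RPKM. Of the separate *H19* and *Igf2* domain nearby, *H19* was at 2.01 ± 0.712, 2.82 ± 0.650 and 0.779 ± 0.382 RPKM and *Igf2* at 3.21 ± 2.38, 3.18 ± 1.82 and 1.81 ± 1.52.

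In Vav-Ezh2-KO 14 flanking genes were tested, 2 with positive differences, beside 6421 of all 13646 genes. The median log2 difference was -0.08, beside -0.02 over all genes. None was called by limma or limma-voom, and 3 of the 14 had an unadjusted p under 0.05, a larger share than the 7.93% of all genes. The Vav-Ezh2-KO levels of *H19*, an imprinted noncoding RNA, were 0.271, 0.623, 0.749, 1.30 and 0.959 RPKM, beside 1.16 to 2.95 in WT, a log2 difference of -1.21 (limma adjusted p = 0.519), against 0.48 (SE 0.28, limma adjusted p = 0.635) in Tie2-Ezh2-KO. Of the remaining flanking genes, *Ctsd*, *Lsp1*, *Mrpl23*, *Tnni2*, *Dhcr7* and *Mrgpre* were not called in either knockout, *Ins2* was tested in Tie2-Ezh2-KO alone and not called, *Syt8*, *Tnnt3* and *Th* did not pass the filter, and *Trpm5* and *Mrgprg* are not among the genes analysed here. *Ctsd* and *Mrpl23* were abundant, at 110 and 194 RPKM in WT, and *Syt8*, *Tnnt3*, *Th* and *Ins2* were at or near 0.

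Promoter sequence was read for 7 of the 10 members (not *Cdkn1c*, *Kcnq1* or *Tnfrsf22*), as 300 bases around the promoter annotated by RefSeq on GRCm38.p6. Those of *Phlda2* (chr7:143502475-143502774, minus strand) and *Ascl2* (chr7:142969215-142969514, minus strand) are shown because these members differed most from WT in Tie2-Ezh2-KO, and that of *Kcnq1ot1* (chr7:143296498-143296797, minus strand) because it is the RNA of the domain. Each is written 5′ to 3′ on the strand of the gene, with every CG dinucleotide in capitals.
Phlda2: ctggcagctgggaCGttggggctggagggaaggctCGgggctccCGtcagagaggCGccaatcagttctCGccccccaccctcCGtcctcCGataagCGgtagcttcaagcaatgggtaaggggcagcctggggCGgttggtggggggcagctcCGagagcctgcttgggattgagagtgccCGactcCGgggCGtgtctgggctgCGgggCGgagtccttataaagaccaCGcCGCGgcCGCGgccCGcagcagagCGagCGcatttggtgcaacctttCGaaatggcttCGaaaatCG
Ascl2: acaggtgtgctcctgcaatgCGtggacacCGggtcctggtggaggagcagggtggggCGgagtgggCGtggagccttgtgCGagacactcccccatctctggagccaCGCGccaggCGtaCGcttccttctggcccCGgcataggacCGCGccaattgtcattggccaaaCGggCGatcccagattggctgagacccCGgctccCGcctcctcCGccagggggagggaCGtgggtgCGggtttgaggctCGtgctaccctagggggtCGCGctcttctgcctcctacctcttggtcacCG
Kcnq1ot1: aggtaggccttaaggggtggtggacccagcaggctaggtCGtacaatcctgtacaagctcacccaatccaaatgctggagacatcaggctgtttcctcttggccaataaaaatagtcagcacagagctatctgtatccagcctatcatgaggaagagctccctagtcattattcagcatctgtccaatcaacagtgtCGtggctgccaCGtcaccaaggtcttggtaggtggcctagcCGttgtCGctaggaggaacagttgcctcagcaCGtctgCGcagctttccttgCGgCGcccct

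The *Phlda2* promoter holds 26 CG dinucleotides, a number that 16.9% of 32817 annotated promoters reach, and the *Ascl2* promoter 23, which 21.5% reach, beside a median of 7. The *Kcnq1ot1* promoter holds 9. The promoter of *Cdkn1c*, also high in Tie2-Ezh2-KO, was not read. Among the members read, a high CG number was not particular to those high in Tie2-Ezh2-KO. *Cd81* and *Tssc4* also hold 23, while *Slc22a18* holds 2 and *Tnfrsf23* 9. The *Phlda2* promoter also has the TATAAA motif, found in 13.6% of promoters, and the E-box CAGCTG, found in 16.3%, and the *Ascl2* and *Kcnq1ot1* promoters have neither. The *Cd81* and *Tnfrsf23* promoters hold both motifs too. For *Cdkn1c*, 479 of 2171 distinct words of 75 bases in its transcripts also occur in the annotated gene *Gm44732*, and *Phlda2* and *Ascl2* share no such word with another annotated gene.

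Genes of the silencing machinery, from a list of 43 that includes PRC2, PRC1 and DNA methylation genes, were tested for 42. In Tie2-Ezh2-KO 1 was called higher and 1 lower, beside 2.73% of all genes called (2.42% called higher). The median log2 difference was -0.09, beside 0.01 over all genes. The gene called lower was *Ezh2*, and the gene called higher was *Bmi1*, a PRC1 subunit, at 1.75 (SE 0.16, limma adjusted p = 5.5e-05). Imprinted genes elsewhere in the genome, from a list of 54, were tested for 40, of which 27 had positive differences, with a median of 0.16. Over all genes 7347 of 14154 had positive differences. In Vav-Ezh2-KO 37 were tested, so some of the 40 passed the filter only through Tie2-Ezh2-KO libraries, which largely fixes their sign. Of the 40, 9 had an unadjusted p under 0.05, beside 1552 of all 14154 genes. The 1 called, beside 2.73% of all genes, was *Sfmbt2*, an imprinted Polycomb gene of extraembryonic tissue, at 1.74 (SE 0.30, limma adjusted p = 0.00404). In Vav-Ezh2-KO no gene of either list was called by limma or limma-voom, and the medians were -0.09 and -0.08. There 5 of 42 machinery genes and 1 of 37 imprinted genes had an unadjusted p under 0.05, beside 7.93% of all genes.

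Relatives of the members gave a comparison within families. *Phlda3*, a p53 target with the same domain as *Phlda2*, was at 6.65 ± 2.26 RPKM in WT, 15.5 ± 5.29 in Tie2-Ezh2-KO and 4.61 ± 1.5 in Vav-Ezh2-KO, and rose by 1.20 on the log2 scale in Tie2-Ezh2-KO (SE 0.26, limma adjusted p = 0.0195). That call was kept in 14 of 22 alternatives, with an adjusted p of 0.00776 to 0.105, and was lost without Tie2-Ezh2-WT replicate 10 or Tie2-Ezh2-KO replicate 7 or 17, at differences of 1.03 to 1.14. *Phlda1* was at 21.0 ± 11.7, 11.1 ± 2.63 and 24.8 ± 9.17 RPKM and was not called. Of the other inhibitors of the *Cdkn1c* family, *Cdkn1a* was at 12.9 ± 5.92, 19.0 ± 8.18 and 17.3 ± 5.67 RPKM, and *Cdkn1b* at 0.452, 0.2 and 0.216, neither called. The tetraspanin *Cd9* was at 125 ± 31.3, 156 ± 31.6 and 131 ± 13.3 RPKM. Of 19 relatives 13 were tested in Tie2-Ezh2-KO, 7 with positive differences, a share close to the 7347 of all 14154 genes. *Phlda3* was the 1 called, beside 2.73% of all genes, and the median was 0.27, beside 0.01. In Vav-Ezh2-KO none was called by limma or limma-voom, 1 of 13 had an unadjusted p under 0.05, beside 7.93% of all genes, and the median was -0.02. Those not called included *Cd82*, *Kcne3*, *Slc22a3*, *Slc22a4* and *Slc22a5*, with *Slc22a3* the most abundant transporter at 16.3 RPKM in WT, and *Ascl3*, *Kcnq5* and *Kcne1*, which were at 0 or below 0.25 RPKM in each group mean.

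The genes whose pattern over the 15 libraries was closest to that of a member were found by the root mean square difference of centred log2 levels among 14394 genes. The libraries include Tie2-Ezh2-KO, where these members were known to be high, so the closest genes are largely genes high there and the likeness is a description. For *Phlda2* they were *Amn* (0.92), *Crip2* (1.03), *Lgi2* (1.09), *Esx1* (1.11), *Arhgdig* (1.12) and *Hoxb13* (1.18). *Crip2* was at 6.14 RPKM in WT, 49.4 in Tie2-Ezh2-KO and 8.27 in Vav-Ezh2-KO, and *Esx1* at 0.036, 7.03 and 0.13 (means). For *Cdkn1c* they were *Lhfpl2* (0.58), *Tcf15* (0.66), *Ascl2* (0.68), *Gal3st1* (0.71), *Cldn3* (0.71) and *Amn* (0.72). For *Ascl2* they were *Efna2* (0.62), *Utf1* (0.63), *Lhfpl2* (0.68), *Cdkn1c* (0.68), *Tcf15* (0.70) and *Slc6a20a* (0.71). *Cdkn1c* and *Ascl2* were thus each among the 6 closest genes of the other, whereas for *Phlda2* *Cdkn1c* came at rank 10 and *Ascl2* at rank 17, and *Phlda2* itself came at rank 676 for *Cdkn1c* and 845 for *Ascl2*. Levels were centred but not scaled, so these ranks depend on the size of a difference as well as on its pattern.

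Markers of other cell types were measured because *Phlda2*, *Cdkn1c* and *Ascl2* are also genes of extraembryonic tissue. Of 20 trophoblast genes 8 were tested in Tie2-Ezh2-KO, 7 with positive differences, beside 7347 of all 14154 genes. Against the same WT libraries 4 were tested in Vav-Ezh2-KO, so some of the 8 passed the filter only through Tie2-Ezh2-KO libraries. A positive difference is largely fixed for such genes. The 1 called, beside 2.73% of all genes, was *Krt18*, at 0.90 (SE 0.19, limma adjusted p = 0.0199, kept in 16 of 22 alternatives). That call was lost without either Vav-Ezh2-WT library or Tie2-Ezh2-KO replicate 7, at differences of 0.76 to 0.86. The summed trophoblast level was 20.6, 15.2 and 14.3 RPKM in Tie2-Ezh2-WT, 13.8 and 14.5 in Vav-Ezh2-WT, 42.3, 29.7, 25.5, 18.1 and 28.8 in Tie2-Ezh2-KO, and 16.8, 12.3, 14.5, 17 and 15.9 in Vav-Ezh2-KO. *Krt18*, a keratin of many epithelia, made up most of it. Of the 16 listed genes in the data, 2 to 4 were above 0 in WT libraries and 3 to 8 in Tie2-Ezh2-KO libraries. *Gcm1*, *Synb*, *Elf5*, *Cdx2*, *Esrrb* and *Rhox9* were at 0 in every Tie2-Ezh2-KO library. *Gcm1*, *Elf5*, *Esrrb* and *Rhox9* were also at 0 in every WT library, so they do not set the groups apart. *Eomes* and *Tfap2c*, at 0 in every WT and Vav-Ezh2-KO library, were at 0.0676 and 0.184 RPKM in Tie2-Ezh2-KO replicate 7, 0.247 and 0.256 in replicate 9 and 0.0167 and 0.081 in replicate 17, from 1 to 14 reads. *Prl3d1*, *Prl3b1* and *Prl2c2* had 1, 1 and 3 reads in Tie2-Ezh2-KO replicate 7 and 0 in every other library.

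Of 16 visceral endoderm genes 13 were tested in Tie2-Ezh2-KO, all with positive differences, beside 7347 of all 14154 genes. In Vav-Ezh2-KO 11 were tested, so some of the 13 passed the filter only through Tie2-Ezh2-KO libraries, which largely fixes their sign. Among the 13, 2 were called, beside 2.73% of all genes. They were *Amn* at 3.01 (SE 0.45, limma adjusted p = 0.00155) and *Epcam* at 2.65 (SE 0.35, limma adjusted p = 0.00059). The summed level was 239, 25.9 and 28.2 RPKM in Tie2-Ezh2-WT, 23.2 and 30.2 in Vav-Ezh2-WT, 354, 47.4, 33.4, 32.1 and 44.0 in Tie2-Ezh2-KO, and 21.7, 23.3, 19.4, 27.0 and 16.7 in Vav-Ezh2-KO. Tie2-Ezh2-WT replicate 4 and Tie2-Ezh2-KO replicate 7 stood far above the rest. *Trf* was the most abundant gene on average over the 15 libraries, though *Apoa1*, at 71.7 RPKM, exceeded it in Tie2-Ezh2-KO replicate 7. *Afp* was at 48.2 and 59.9 RPKM in that pair and at 0.267 to 2.44 elsewhere, and *Foxa2* was at 0 in WT and Vav-Ezh2-KO. The highest WT values of *Phlda2* and *Cdkn1c*, 5.35 and 4.70 RPKM, were both in Tie2-Ezh2-WT replicate 4. Without that pair of libraries, the log2 differences in Tie2-Ezh2-KO were 4.62 for *Phlda2*, 2.32 for *Cdkn1c* and 3.08 for *Ascl2*. The summed visceral endoderm level in the other Tie2-Ezh2-KO libraries, 32.1 to 47.4 RPKM, was still above that in the other WT libraries, 23.2 to 30.2.

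Of 10 primitive erythroid genes 9 were tested, 8 with positive differences in Tie2-Ezh2-KO, beside 7347 of all 14154 genes. Of these 9, 5 had an unadjusted p under 0.05, beside 1552 of all 14154 genes. Called were 2, beside 2.73% of all genes. *Hba-x* was called at 6.33 (SE 0.62, limma adjusted p = 8.9e-05, kept in 21 of 22 alternatives) and *Hbb-bh1* at 1.18 (SE 0.29, limma adjusted p = 0.0441, kept in 9). The *Hbb-bh1* call was lost without any 1 of the WT libraries or Tie2-Ezh2-KO replicate 7, 9 or 11, at differences of 0.93 to 1.27. The summed level, with *Hbb-bh1* the most abundant gene on average, was 328, 266 and 361 RPKM in Tie2-Ezh2-WT, 232 and 272 in Vav-Ezh2-WT, 631, 754, 1120, 424 and 502 in Tie2-Ezh2-KO, and 237, 275, 247, 293 and 346 in Vav-Ezh2-KO. *Slc4a1* was at 0 in WT and Vav-Ezh2-KO, so it passed the filter only through Tie2-Ezh2-KO libraries and its positive difference was fixed. Among the Tie2-Ezh2-KO libraries, replicate 13 had the highest *Phlda2* level, 29.4 RPKM, and the lowest trophoblast, visceral endoderm and primitive erythroid sums. Replicate 7 had the highest *Cdkn1c* and *Ascl2* levels, 12.7 and 11.6 RPKM, and the highest trophoblast and visceral endoderm sums. The study's gate for EMPs was lineage-negative, which removes cells with surface markers of mature blood lineages. The part of these cell types in the levels of the members was not tested beyond these values.

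The summed levels of the other marker lists overlapped between WT and the knockouts. Endothelial genes summed to 152 to 189 RPKM in WT, 158 to 180 in Tie2-Ezh2-KO and 135 to 175 in Vav-Ezh2-KO, with *Egfl7* the most abundant and *Sox7* at 0 in WT and Vav-Ezh2-KO. Mesenchymal genes summed to 2.43 to 3.88, 2.65 to 3.48 and 1.61 to 3.46 RPKM, with *Pdgfrb* the most abundant on average and *Pdgfra* at 0 in WT and Tie2-Ezh2-KO. Macrophage genes summed to 73.9 to 112, 80.6 to 88.0 and 84.6 to 171 RPKM, with *Lyz2* the most abundant and *C1qa* at 0 in the 3 groups. Megakaryocyte genes summed to 163 to 395, 192 to 326 and 183 to 335 RPKM. Of these lists 1 gene, the megakaryocyte gene *Gp1ba*, was called in Tie2-Ezh2-KO, beside 2.73% of all genes. Its log2 difference was -0.94 (SE 0.24, limma adjusted p = 0.0495, kept in 8 of 22 alternatives). That call was lost without Tie2-Ezh2-WT replicate 4 or 10, either Vav-Ezh2-WT library, or Tie2-Ezh2-KO replicate 7, 9, 11 or 17. The differences were then -1.0 to -0.83. An unadjusted p under 0.05 was reached by 4 of 15 EMP, 4 of 13 endothelial, 1 of 6 mesenchymal, 2 of 8 macrophage and 3 of 9 megakaryocyte genes, beside 1552 of 14154 genes. The EMP, endothelial, mesenchymal and macrophage lists had 0 called by limma or limma-voom. Positive differences in Tie2-Ezh2-KO numbered 7 of 15 for EMP genes, 10 of 13 for endothelium, 3 of 6 for mesenchyme, 2 of 8 for macrophages and 1 of 9 for megakaryocytes, beside 7347 of 14154 genes. The median log2 differences were -0.12, 0.38, -0.002, -0.18 and -0.35 in that order, beside 0.01 over all genes. In Vav-Ezh2-KO 12 endothelial genes were tested, so not all 13 passed the filter without Tie2-Ezh2-KO libraries. In Vav-Ezh2-KO no marker of any list was called by limma or limma-voom, and the medians included -0.88 for visceral endoderm, with 2 of 11 genes at an unadjusted p under 0.05, and -0.13 for trophoblast, with 0 of 4. The WT side of the visceral endoderm median includes Tie2-Ezh2-WT replicate 4, with a sum of 239 RPKM. The other WT libraries were at 23.2 to 30.2 RPKM and the Vav-Ezh2-KO libraries at 16.7 to 27.0, which overlap.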

How the data were processed

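RNA-seq of sorted EMPs was analysed in 15 libraries, each from an individual YS, grouped by genotype as the labels give it. The authors aligned reads to GRCm38 with TopHat (2.0.13 in the submitters' notes), counted them with featureCounts, and deposited RPKM of 17454 genes. The whole reads behind the RPKM were recovered for all 16877 genes above 0, each within 1e-06 of a whole number relative to its reads, and are the source of read numbers here. Reads came from cDNA after 16 PCR cycles, so they are not independent molecules.

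Differences were tested with limma 3.58.1 in R 4.3.3 (lmFit, eBayes with trend) on log2(RPKM + 0.2) for genes that exceeded 0.2 RPKM in any library fitted. The threshold was a Benjamini-Hochberg adjusted p of 0.05. The procedure was tested on simulated data. Members were also tested singly in Python 3.11.15, by an exact permutation test, two-sided. Sequence, positions and shared words were read from RefSeq and GENCODE annotation of GRCm38. Members and lists were chosen with earlier results of these data known. Genes named were the members, every flanking gene and relative of the members, every called gene of the lists, the 6 genes closest in pattern to *Phlda2*, *Cdkn1c* and *Ascl2*, and of each marker list its most abundant gene and those at 0, of which some are given. Some genes that this rule or a small count would name are not reported here.

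The alternatives tried were other pseudocounts (0.05 and 1), no filter and a stricter filter, eBayes without trend, array weights, quantile normalization, a common median, 1 fit over all libraries, WT of the same line only, and leaving out each library. Added after seeing the data were limma-voom on recovered reads and, for Tie2-Ezh2-KO, leaving out the pair of libraries highest in visceral endoderm markers. The chromatin and culture experiments of the study were not used here.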

Additional observations from a re-analysis of the deposited data

Results flagged for a closer look

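*Cdkn1c* had all 5 Tie2-Ezh2-KO libraries above the WT mean of 2.30 RPKM and all 5 Vav-Ezh2-KO libraries below it, though 3 of the 5 WT libraries were below it too and the Vav-Ezh2-KO difference of -1.04 was not called (limma adjusted p = 0.638). The difference between the effects was 3.18 on the log2 scale, which with shared WT libraries is Tie2-Ezh2-KO minus Vav-Ezh2-KO, and it was not tested.

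*Ascl2* in Vav-Ezh2-WT replicate 4, at 0.0833 RPKM from 2 reads, lay far below the other WT libraries, which were at 0.862 to 1.37 RPKM. On the log2(RPKM + 0.2) scale it was at -1.82 and the others at 0.09 to 0.65, and its gap to the nearest library was 0.772 of the whole range of the 5 WT libraries, above the critical value of 0.71. Such a test marks about 1 in 20 groups by chance, and 27 groups of member values were examined.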

How the results depend on the processing

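In Tie2-Ezh2-KO against WT, 386 genes were called, 187 with WT of the same line only and 217 without the pair of libraries highest in visceral endoderm markers (chosen after seeing the data), both with fewer libraries, 262 to 438 when each library was left out, and 533 with array weights, the highest. In Vav-Ezh2-KO against WT, 1 was called, 2 with WT of the same line only, 0 with limma-voom on recovered reads (chosen after seeing the data), and 1 to 2 when each library was left out. Between the WT lines 2 were called, 20 in the 5 WT libraries alone, 1 with a pseudocount of 1, and 0 to 8 when each library was left out. The cause was not tested. Leaving out 1 of the Vav-Ezh2-WT libraries assumes that the other varies like the other groups.

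The log2 differences of *Phlda2*, *Cdkn1c* and *Ascl2* in Tie2-Ezh2-KO were 3.27 to 4.62, 1.69 to 2.45 and 2.29 to 3.47 over 22 alternatives. Of 194 member values there, 190 moved by less than the spread between replicates and 4 by more. In Vav-Ezh2-KO 171 of 185 member values kept their direction and 14 changed sign, and between the WT lines 51 of 62 and 11, with no member called in any. Of the other genes named with a difference, 232 of 286 values kept their direction and side of the threshold in Tie2-Ezh2-KO, 54 lost a call, and 99 of 105 kept both in Vav-Ezh2-KO. *Kcnq1ot1* had no value in some alternatives, such as the stricter filter.

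In Tie2-Ezh2-KO, *Tssc4* was 0.04 with a common median, *Tnfrsf23* -0.16 with quantile normalization, and when each library was left out *Slc22a18* was -0.07 to 0.87 and *Tssc4* -0.13 to 0.02, so these changed sign too. Other sign changes were in Vav-Ezh2-KO *Phlda2* -0.02 with a pseudocount of 1, *Ezh2* 0.001 with quantile normalization and 0.03 with a common median, and *Slc22a18* -0.19 with limma-voom, and between the WT lines *Phlda2* 0.11 and *Slc22a18* 0.005 with a pseudocount of 1. The cause was not tested. When each library was left out, signs varied in Vav-Ezh2-KO for *Phlda2* (-0.45 to 0.62), *Slc22a18* (-0.19 to 0.72), *Ascl2* (-0.04 to 0.62), *Tnfrsf22* (-0.005 to 0.27), *Tnfrsf23* (-0.06 to 0.14) and *Ezh2* (-0.10 to 0.02), and between the WT lines for *Phlda2* (-1.12 to 1.02), *Slc22a18* (-0.88 to 0.68), *Ascl2* (-0.32 to 2.15), *Tssc4* (-0.36 to 0.10), *Tnfrsf22* (-0.28 to 0.16) and *Tnfrsf23* (-0.03 to 0.35).

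No paired analysis was possible because the groups compared share fewer than 2 replicate numbers. The labels do not assign libraries to an experiment, and differences between experiments were not checked. In the shallowest library, 3 reads on *Kcnq1* correspond to 0.0952 RPKM, and the low WT values of *Phlda2* rest on as few as 1 read.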
